A study of Caenorhabditis elegans with 16 samples.

Results

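Glutathione S-transferases (GSTs) join the tripeptide glutathione to reactive or fat-soluble molecules, which makes those molecules easier to export or break down. The genes described here were all rows of the worm expression table whose gene name starts with *gst-*, *gsto-* or *gstk-*, which gave 48 of the 19750 genes in the table. They comprised 2 zeta genes (*gst-42* and *gst-43*), 3 omega genes (*gsto-*), 2 kappa genes (*gstk-*) and 41 other *gst-* genes. One further annotated gene, *gst-37*, was not analysed here.

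In *C. elegans*, the transcription factor SKN-1, the counterpart of mammalian Nrf proteins, raises many GST genes under oxidative or toxic stress, and *gst-4* is widely used as a reporter of that response. Glutathione itself is made in a pathway whose rate is set by glutamate-cysteine ligase, the product of *gcs-1*, and conjugates leave cells through ABC transporters of the MRP family.

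RNA was sequenced from whole wild-type N2 worms on day 1 of adulthood, about 500 worms per sample, with 4 samples in each of 4 groups. Synchronized larvae were placed on HT115 bacteria carrying either an empty vector (EV) or the *ech-6* RNAi construct, on agar with water as vehicle or with polysorbate 80 (P-80), a soluble fat built on oleic acid. EV worms and *ech-6* RNAi worms were thus each grown with vehicle (EV + vehicle, *ech-6* RNAi + vehicle) and with P-80 (EV + P-80, *ech-6* RNAi + P-80). The P-80 concentration used for these samples was not stated in the labels. The product of *ech-6* is an enoyl-CoA hydratase, and feeding RNAi lowers its transcript without removing the gene. The samples were labelled as quadruplicates, and nothing said whether they came from separate cultures, so p-values measure only the spread between these samples. In whole worms, fewer cells of a type and less RNA per cell cannot be told apart.

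The deposited values were log2 CPM, that is, read counts scaled to the size of each library and placed on a log scale, from which whole read counts could be recovered. Libraries held 15306307 to 28129104 reads assigned to genes, so that 1 read was worth 0.0353 to 0.0651 CPM. Markers of intestine, hypodermis, muscle, neurons, germ line, sperm and pharynx were all detected, with none at 0 in any group. Some of them moved by the test described below. For P-80 that test called 16.1% of all genes in EV worms and 7.21% after *ech-6* RNAi. In EV worms 3 of 5 hypodermis markers were lower and 1 higher with P-80, and 2 of 5 germ line markers were higher. Also called were 1 of 7 intestine (*mtl-2*), 1 of 5 neuron and 1 of 4 pharynx markers, lower, and 1 of 5 sperm markers, higher. After *ech-6* RNAi 2 of 5 body wall muscle markers were higher with P-80, and *mtl-2* and 1 of 5 hypodermis markers were lower. Without the library labelled replicate 3 of *ech-6* RNAi + vehicle (next paragraph), the muscle and hypodermis calls were lost. In that fit *mtl-2* stayed lower and 1 of 4 pharynx markers was higher. Between *ech-6* RNAi and EV, *mtl-2* was higher both with vehicle and with P-80. With vehicle 1 hypodermis and 1 sperm marker were also higher and 1 neuron marker lower, against 2.94% of all genes. Without that library the hypodermis call (*col-19*) alone remained with vehicle. With P-80 1 pharynx marker was also higher, against 0.699% of all genes. The part of tissue make-up in the GST changes was not tested. Replicate 3 of *ech-6* RNAi + P-80 stood apart from its group, with a chi-square per gene of 23.1 to 28.4 against the other 3 libraries, which differed from each other by 5.25 to 5.76.

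The RNAi target was checked first. The log2 CPM of *ech-6* lay between 7.36 and 7.50 in EV + vehicle and between 7.46 and 7.89 in EV + P-80. The 4 samples of *ech-6* RNAi + P-80 had 5.98, 6.09, 6.18 and 5.93. In *ech-6* RNAi + vehicle they had 6.09, 6.05, 7.48 and 6.17, so for this transcript the library labelled replicate 3 of that group sat at the EV level and went against its label. For *gst-4*, *gstk-1*, *gst-41* and *gsto-1*, described below, the same library lay outside the EV + vehicle range, on the side of its own group. The cause was not tested. Calls of GST genes that rest on this group are therefore also given without that library.

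Of the 48 genes, 35 averaged at least 1 CPM and 13 averaged less, and 4 of the latter (*gst-17*, *gst-31*, *gst-32* and *gsto-2*) had at least 1 sample with no read. Levels between genes are compared as CPM per kilobase of exon. *gst-1*, annotated as a Pi class enzyme, was the highest with 180 CPM per kilobase (mean over 16 samples), followed by *gst-7* with 73.5, *gst-10* with 73.3, *gst-4* with 70.7 and *gst-13* with 62.8. At the other end, *gst-17* had 0.179 and *gsto-2* had 0.195 CPM per kilobase.

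The family's mean total ran from 675 to 721 CPM across the groups. Summed over the 48 genes, the level with vehicle was 678 ± 16.6 CPM in EV and 675 ± 8.19 CPM in *ech-6* RNAi samples (SD, n = 4 each). With P-80 it was 704 ± 33.7 and 721 ± 23.9 CPM, respectively. Single samples ranged from 658 to 746 CPM. Every *ech-6* RNAi + P-80 sum (689 to 746 CPM) was above every *ech-6* RNAi + vehicle sum (665 to 684 CPM). In EV worms the sums overlapped, with 664 to 700 CPM with vehicle and 658 to 735 CPM with P-80. Differences in the sum were not tested. *gst-1* alone supplied 17.5 to 21.4% of the sum in each sample, and its 5 most abundant genes supplied 46.6 to 54.7%.

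**Figure D1:**
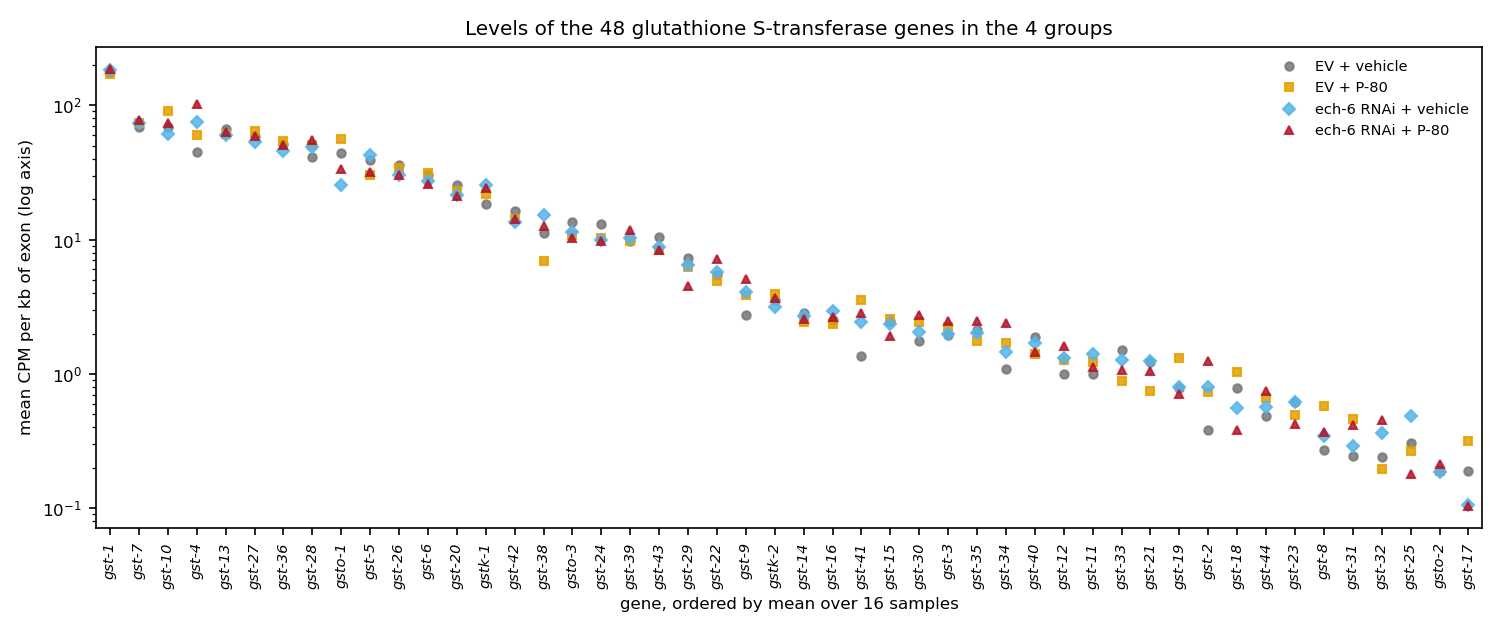
Mean level of each of the 48 genes in each group, as CPM per kilobase of exon on a log axis, with the genes ordered by their mean over 16 samples. *gst-1* leads in all 4 groups, and *gst-4* stands 7th in EV + vehicle and 2nd in both *ech-6* RNAi groups.

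The genes are not scattered evenly over the genome (coordinates on WBcel235). Chromosome II carried 26 of the 48, and 25 genes lay in 4 runs in which neighbours were at most 10 kb apart. These runs were II:4879891-4893573 (*gst-6* to *gst-9*), II:13608154-13630887 (9 genes from *gst-20* to *gst-18*), II:15163817-15185389 (9 genes from *gst-26* to *gst-35*) and IV:10139380-10143099 (*gst-3*, *gst-2* and *gst-4*).

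Neighbours differed widely in level. In the first run, levels ran from 0.391 CPM per kilobase for *gst-8* to 73.5 for *gst-7*, and in the run on chromosome IV from 0.789 for *gst-2* to 70.7 for *gst-4*. In the EV comparison of P-80 with vehicle, the first and second runs had 0 genes past the test, the third had 1 (*gst-28*) and the fourth had 1 (*gst-4*), together 2 of 25, where 16.1% of all genes passed. Reads that match several places were not counted, so levels of closely similar neighbours are uncertain, as are those of *gst-17* and *gst-18*, whose annotated spans overlap on the same strand.

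A gene is called changed below when limma's moderated test, fitted to all 19750 genes and 16 samples, gave a two-sided Benjamini-Hochberg adjusted p under 0.05 over all genes. By this rule 9 of the 48 genes changed in at least 1 of the 5 comparisons, and 39 changed in none. That is 18.8% of the 48, against 18.6% of all genes called in at least 1 comparison. The standard error of a log2 fold change had a median of 0.13 for genes averaging at least 1 CPM and 0.51 for those under 1 CPM. Changes in the low genes were therefore much harder to detect at this depth, and none of the 13 was called in any comparison.

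The first comparison asked what P-80 did in EV worms. *gst-4*, *gst-10*, *gst-28*, *gst-41* and *gstk-1* rose and *gst-5* and *gst-38* fell. That is 7 of 48 genes, or 14.6%, against 16.1% of all genes tested, a share near the background. The share of all genes fell to 10 to 10.5% without EV + vehicle replicate 1 or 4 or EV + P-80 replicate 4. By direction, 6.97% of all genes were called higher and 9.14% lower, which is 1377 and 1805 genes, and subtracting each sample's median turned this into 2361 higher and 1361 lower. The median log2 fold change was 0.08 for the 48 genes and 0.00 for all genes. The samples of the groups did not overlap for 10 of the 48 genes, against 19% of all genes.

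*gst-41* (V:7398396-7399302) had the largest called change, though on few reads, 16 to 27 per sample in EV + vehicle and 44 to 59 in EV + P-80. EV + vehicle samples had 1.04, 1.28, 0.880 and 0.955 CPM and EV + P-80 samples had 2.69, 2.61, 2.57 and 3.0. All P-80 samples were above all vehicle samples, and the fold change was 2.61 (log2 1.39, SE 0.161, limma adjusted p = 2.25e-05).

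*gst-4* (IV:10142225-10143099) had 35.6, 31.3, 34.3 and 30.4 CPM in EV + vehicle and 49.6, 45.8, 37.4 and 43.1 in EV + P-80. The groups did not overlap, and *gst-4* rose by 0.41 on the log2 scale (SE 0.0771, limma adjusted p = 0.00140).

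*gst-10* (V:2561690-2564645), whose enzyme conjugates 4-hydroxynonenal, a product of lipid peroxidation, had 49.2, 45.9, 46.7 and 55.1 CPM with vehicle and 64.4, 54.6, 77.9 and 62.1 with P-80. One P-80 sample lay just below the highest vehicle sample. The log2 fold change was 0.39 (SE 0.0886, limma adjusted p = 0.00548).

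*gstk-1* (II:9656705-9657719) encodes a kappa class enzyme, a class found in mitochondria and peroxisomes. Its vehicle samples had 14.1, 15.4, 14.4 and 13.9 CPM and its P-80 samples 16.8, 17.5, 16.6 and 17.6, without overlap, and its log2 fold change was 0.25 (SE 0.0686, limma adjusted p = 0.0187). This call was lost without EV + vehicle replicate 1 (adjusted p = 0.0538) or 4 (0.0651), or without EV + P-80 replicate 4 (0.0594).

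*gst-28* (II:15166194-15167577) had 31.7, 32.9, 31.4 and 29.4 CPM with vehicle and 38.1, 36.7, 36.7 and 42.1 with P-80, again without overlap (log2 fold change 0.29, SE 0.0747, limma adjusted p = 0.0113).

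The 2 genes that fell also separated the groups completely. For *gst-5* (II:10950352-10951603), EV + vehicle samples had 28.9, 27.0, 25.4 and 32.8 CPM and EV + P-80 samples had 21.4, 19.5, 24.9 and 21.3. Its log2 fold change was -0.39 (SE 0.0840, limma adjusted p = 0.00377). For *gst-38* (V:15915162-15916070), the values were 10.2, 10.8, 9.28 and 8.18 CPM with vehicle and 8.14, 6.67, 3.68 and 5.19 with P-80. The highest P-80 sample lay just under the lowest vehicle sample, and the log2 fold change was -0.75 (SE 0.200, limma adjusted p = 0.0141).

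**Figure D2:**
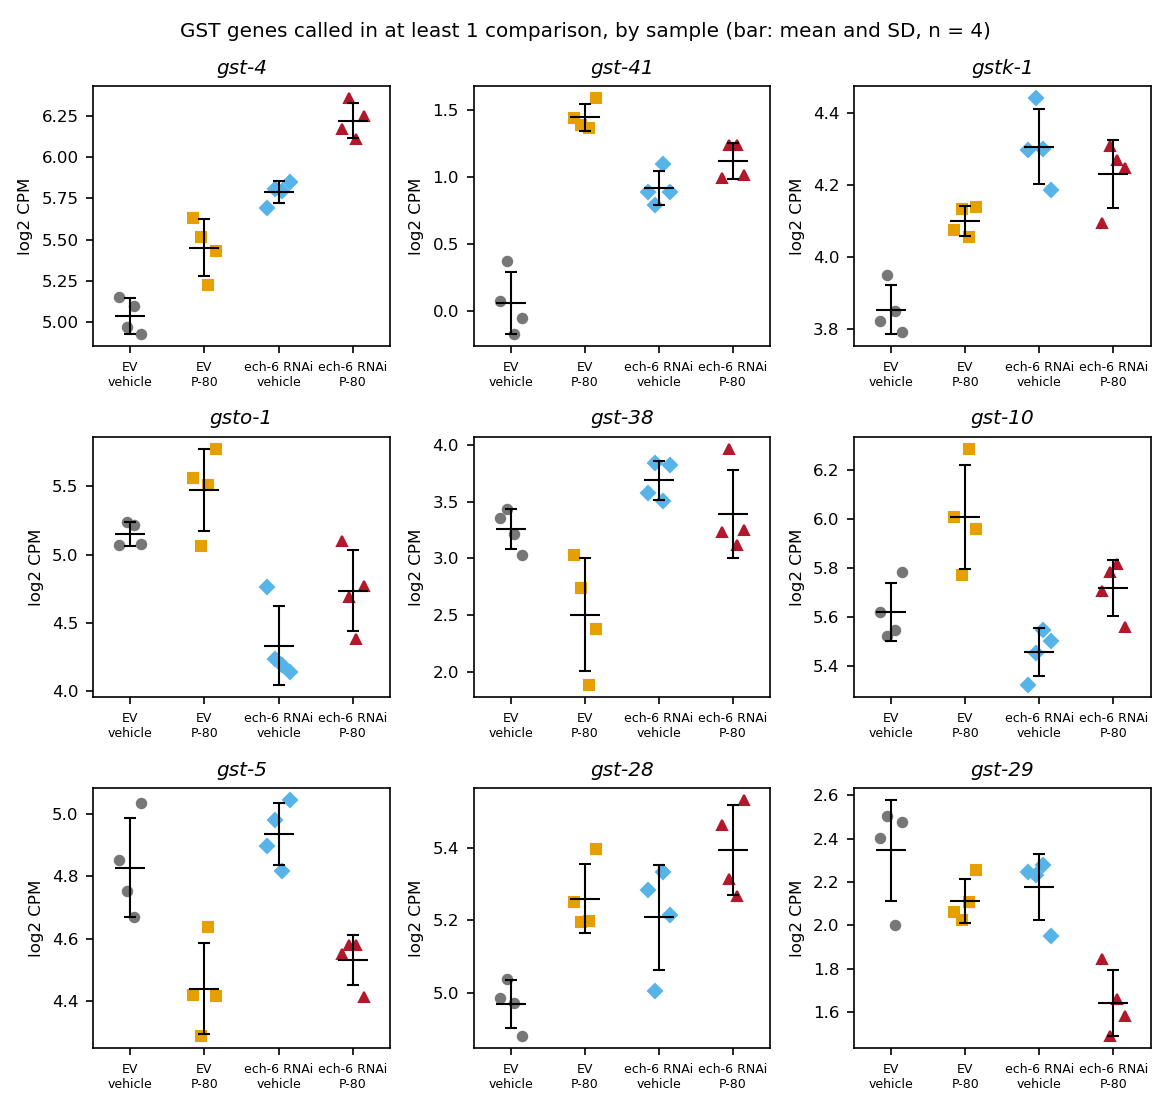
Log2 CPM of the 9 GST genes called in at least 1 comparison, with 1 point per sample, and the mean and SD of each group (n = 4). *gst-4* shows 4 groups without overlap, with EV + vehicle lowest, then EV + P-80, and both *ech-6* RNAi groups above them, P-80 highest.

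Genes whose expression follows the moulting cycle moved with P-80 as well. Of 51 hedgehog-related genes (names in *grd*, *grl*, *wrt*, *hog* or *qua*), used here as a list sensitive to developmental timing, 22 were lower and 4 higher with P-80 in EV worms, where 9.14% of all genes were lower and 6.97% higher. In *ech-6* RNAi worms 17 were lower and 3 higher, against 4.58 and 2.63% of all genes, and 10 were lower and 3 higher without the library labelled replicate 3 of *ech-6* RNAi + vehicle. In EV samples their summed level ran from 1339 to 1749 CPM with vehicle and from 609 to 1264 CPM with P-80. In *ech-6* RNAi samples it ran from 1011 to 1308 CPM with vehicle and from 619 to 1015 CPM with P-80. None was called in either comparison of *ech-6* RNAi with EV. Their median log2 fold change there was -0.38 with vehicle and -0.25 with P-80. With vehicle every *ech-6* RNAi sum lay below every EV sum.

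With each sample's mean log2 level of that list as a covariate, 3 GST genes were called for P-80 in EV worms in place of 7. The share of all genes called fell from 16.1% to 0.689%, so the loss of calls was not particular to the GST genes. *gst-10* (log2 fold change 0.60, limma adjusted p = 0.0108), *gst-38* (-1.23, 0.0246) and *gst-41* (1.27, 0.0244) stayed, while *gst-4* (0.27, 0.444), *gst-5* (-0.22, 0.676), *gst-28* (0.13, 0.847) and *gstk-1* (0.20, 0.690) no longer passed. The same 3 genes were called when the library labelled replicate 3 of *ech-6* RNAi + vehicle was also left out, a fit chosen after seeing the data. That fit called 0.628% of all genes. The list and P-80 moved together, and the part of timing in these changes was not tested.

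The second comparison asked what P-80 did when *ech-6* was knocked down. *gst-4* rose, and *gst-5* and *gst-29* fell. That is 3 of 48 genes, or 6.25%, against 7.21% of all genes tested (2.63% higher and 4.58% lower), again near the background. After that centring, the 519 higher and 905 lower genes of all genes tested became 1033 and 756. Without the library labelled replicate 3 of *ech-6* RNAi + vehicle, 2 GST genes were called, *gst-4* and *gst-5*, and 3.56% of all genes. Leaving out any 1 of 6 libraries, this one, replicates 2 and 4 of *ech-6* RNAi + vehicle and replicates 1, 2 and 4 of *ech-6* RNAi + P-80, brought the share of all genes to 3.11 to 3.96%. Without *ech-6* RNAi + P-80 replicate 3, 4 GST genes were called, *gsto-1* in addition, and the share of all genes rose to 9.82%. The median log2 fold change was 0.04 for the 48 genes and -0.02 for all genes. For 6 of the 48 genes the groups did not overlap, against 11.2% of all genes.

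*gst-4* had 51.7, 56, 55.5 and 57.7 CPM in *ech-6* RNAi + vehicle and 71.9, 82.1, 69 and 76.0 in *ech-6* RNAi + P-80. All P-80 samples were higher, with a log2 fold change of 0.44 (SE 0.0771, limma adjusted p = 0.00263). Without the library labelled replicate 3 of *ech-6* RNAi + vehicle it was 0.44 with an adjusted p of 0.0100.

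*gst-5* had 29.8, 31.6, 28.2 and 33.0 CPM with vehicle and 23.4, 23.9, 23.9 and 21.3 with P-80. The groups did not overlap, and the log2 fold change of -0.41 (SE 0.0840, limma adjusted p = 0.00715) was -0.44 without the library labelled replicate 3 (adjusted p = 0.0125).

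*gst-29* (II:15168538-15169861), a neighbour of *gst-28*, had 4.73, 4.69, 4.84 and 3.85 CPM with vehicle and 3.59, 2.79, 3.15 and 2.98 with P-80 (log2 fold change -0.53, SE 0.131, limma adjusted p = 0.0188). This call was lost with quantile normalization, and also without replicate 2 (adjusted p = 0.0605) or the library labelled replicate 3 (0.0639) of *ech-6* RNAi + vehicle, and without replicate 2 (0.0655) or 4 (0.0544) of *ech-6* RNAi + P-80.

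For *gst-10* the samples had 40.0, 43.8, 46.7 and 45.3 CPM with vehicle and 52.2, 55.1, 56.3 and 47.2 with P-80. Every P-80 sample was above every vehicle sample, but the log2 fold change of 0.26 (SE 0.0886) did not pass the test over all genes (limma adjusted p = 0.0859, and 0.103 without the library labelled replicate 3). With the hedgehog-related covariate, 0 of the 3 genes passed in this comparison, where 0.547% of all genes were called in place of 7.21%. The values were 0.31 for *gst-4* (limma adjusted p = 0.263), -0.26 for *gst-5* (0.447) and -0.52 for *gst-29* (0.366), and 0 passed without the library labelled replicate 3 as well.

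The third comparison set *ech-6* RNAi against EV with vehicle. *gst-4*, *gst-41* and *gstk-1* rose and *gsto-1* fell, 4 of 48 genes or 8.33%, against 2.94% of all genes tested (1.95% higher and 0.982% lower). The median log2 fold change was 0.06 for the 48 genes and 0.00 for all genes. For 14 of the 48 genes the groups did not overlap, against 13.1% of all genes. Without the library labelled replicate 3 of *ech-6* RNAi + vehicle, 4 genes were called, the same ones, against 1.75% of all genes. The share of all genes was 1.05 to 1.67% without EV + vehicle replicate 1 or 4 or *ech-6* RNAi + vehicle replicate 2 or 4. This comparison shares its EV + vehicle samples with that of P-80 in EV worms, in which *gst-4*, *gst-41* and *gstk-1* were also called higher.

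*gst-4* rose from 30.4 to 35.6 CPM in EV + vehicle to 51.7 to 57.7 CPM in *ech-6* RNAi + vehicle. The log2 fold change was 0.75 (SE 0.0771, limma adjusted p = 2.15e-05), a 1.68-fold difference, and 0.75 without the library labelled replicate 3 (adjusted p = 0.000110). Its rank within the family by CPM per kilobase went from 7th to 2nd.

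*gstk-1* had 19.6, 21.7, 19.7 and 18.2 CPM in *ech-6* RNAi + vehicle, all above the highest EV + vehicle sample at 15.4. Its log2 fold change was 0.45 (SE 0.0686, limma adjusted p = 0.000895), and 0.45 without the library labelled replicate 3 (adjusted p = 0.00347). The other kappa gene, *gstk-2*, was not called in any comparison.

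*gst-41* had 1.83, 1.72, 2.13 and 1.84 CPM in *ech-6* RNAi + vehicle, all above the EV + vehicle samples, which reached 1.28. The log2 fold change was 0.86 (SE 0.161, limma adjusted p = 0.00557), and 0.80 without the library labelled replicate 3 (adjusted p = 0.0243). With the hedgehog-related covariate added to that fit it was 0.76 and no longer passed (adjusted p = 0.0514).

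*gsto-1* (III:7945542-7947018) encodes an omega class enzyme, a class that reduces oxidized thiols and dehydroascorbate. It had 33.6, 37.7, 37.1 and 33.8 CPM in EV + vehicle and 27.2, 18.9, 18.2 and 17.6 in *ech-6* RNAi + vehicle. All RNAi samples were lower, with replicate 1 nearest to the EV samples. The log2 fold change was -0.82 (SE 0.152, limma adjusted p = 0.00515), and -0.77 without the library labelled replicate 3 (adjusted p = 0.0235). Neither *gsto-2* nor *gsto-3* was called in any comparison.

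*gst-42*, the maleylacetoacetate isomerase of tyrosine breakdown, had 20.6, 15, 15 and 15.7 CPM in EV + vehicle and 13.6, 13.1, 14.4 and 13.6 in *ech-6* RNAi + vehicle. The groups did not overlap, but the log2 fold change of -0.26 (SE 0.0924) did not pass the test (limma adjusted p = 0.132, and 0.156 without the library labelled replicate 3).

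The fourth comparison set *ech-6* RNAi against EV on P-80, and does not use the library labelled replicate 3 of *ech-6* RNAi + vehicle in its means, though that library enters the estimate of the spread. *gst-4* and *gst-38* were higher and *gsto-1* was lower, 3 of 48 genes or 6.25%, against 0.699% of all genes tested (0.476% higher and 0.223% lower). Without that library in the fit, 2 were called, *gst-4* and *gsto-1*, against 0.638% of all genes. Without *ech-6* RNAi + P-80 replicate 3, which stood apart, 2 were called, *gst-4* and *gst-38*, against 0.972% of all genes. The share of all genes was 1.59% without EV + P-80 replicate 4. The median log2 fold change was 0.01 for the 48 genes and -0.01 for all genes. For 6 of the 48 genes the samples did not overlap, against 4.62% of all genes. The EV + P-80 samples here are the same as in the comparison of P-80 in EV worms, where *gst-38* was called lower. Both *gst-38* calls therefore rest in part on those samples and are not separate results.

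*gst-4* reached 69 to 82.1 CPM in *ech-6* RNAi + P-80 against 37.4 to 49.6 in EV + P-80 (log2 fold change 0.77, SE 0.0771, limma adjusted p = 3.08e-05). It was called in each of the 28 alternative fits of this comparison and of the comparison with vehicle.

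*gsto-1* had 47.2, 33.4, 45.5 and 54.7 CPM in EV + P-80 and 34.4, 25.9, 20.8 and 27.3 in *ech-6* RNAi + P-80. One RNAi sample lay just above the lowest EV sample, and the log2 fold change was -0.74 (SE 0.152, limma adjusted p = 0.0219). The call was lost in 5 of the 16 fits that left out 1 library, namely EV + P-80 replicate 1 (adjusted p = 0.0836) or 3 (0.0605) and *ech-6* RNAi + P-80 replicate 2 (0.0755), 3 (0.0535) or 4 (0.0545).

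*gst-38* had 9.40, 15.6, 8.70 and 9.52 CPM in *ech-6* RNAi + P-80, all above the EV + P-80 samples, whose highest was 8.14 (log2 fold change 0.89, SE 0.200, limma adjusted p = 0.0434). Leaving out 1 library kept this call in 3 of 16 fits and lost it in 13, with adjusted p between 0.0139 and 0.172. The highest came without *ech-6* RNAi + P-80 replicate 2, the sample at 15.6 CPM, when the log2 fold change was 0.70. Of the 3 genes, *gst-4* was the member whose call in this comparison held in all 16 of those fits.

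*gst-22* (V:16231032-16232282), singled out after its values were seen, had 5.94, 5.77, 4.75 and 4.30 CPM in *ech-6* RNAi + P-80 and 3.43, 3.71, 3.37 and 3.80 in EV + P-80. The groups did not overlap, and the log2 fold change of 0.52 (SE 0.127) did not pass the test (limma adjusted p = 0.0661). It was called without *ech-6* RNAi + P-80 replicate 4, a fit that called 0.577% of all genes.

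**Figure D3:**
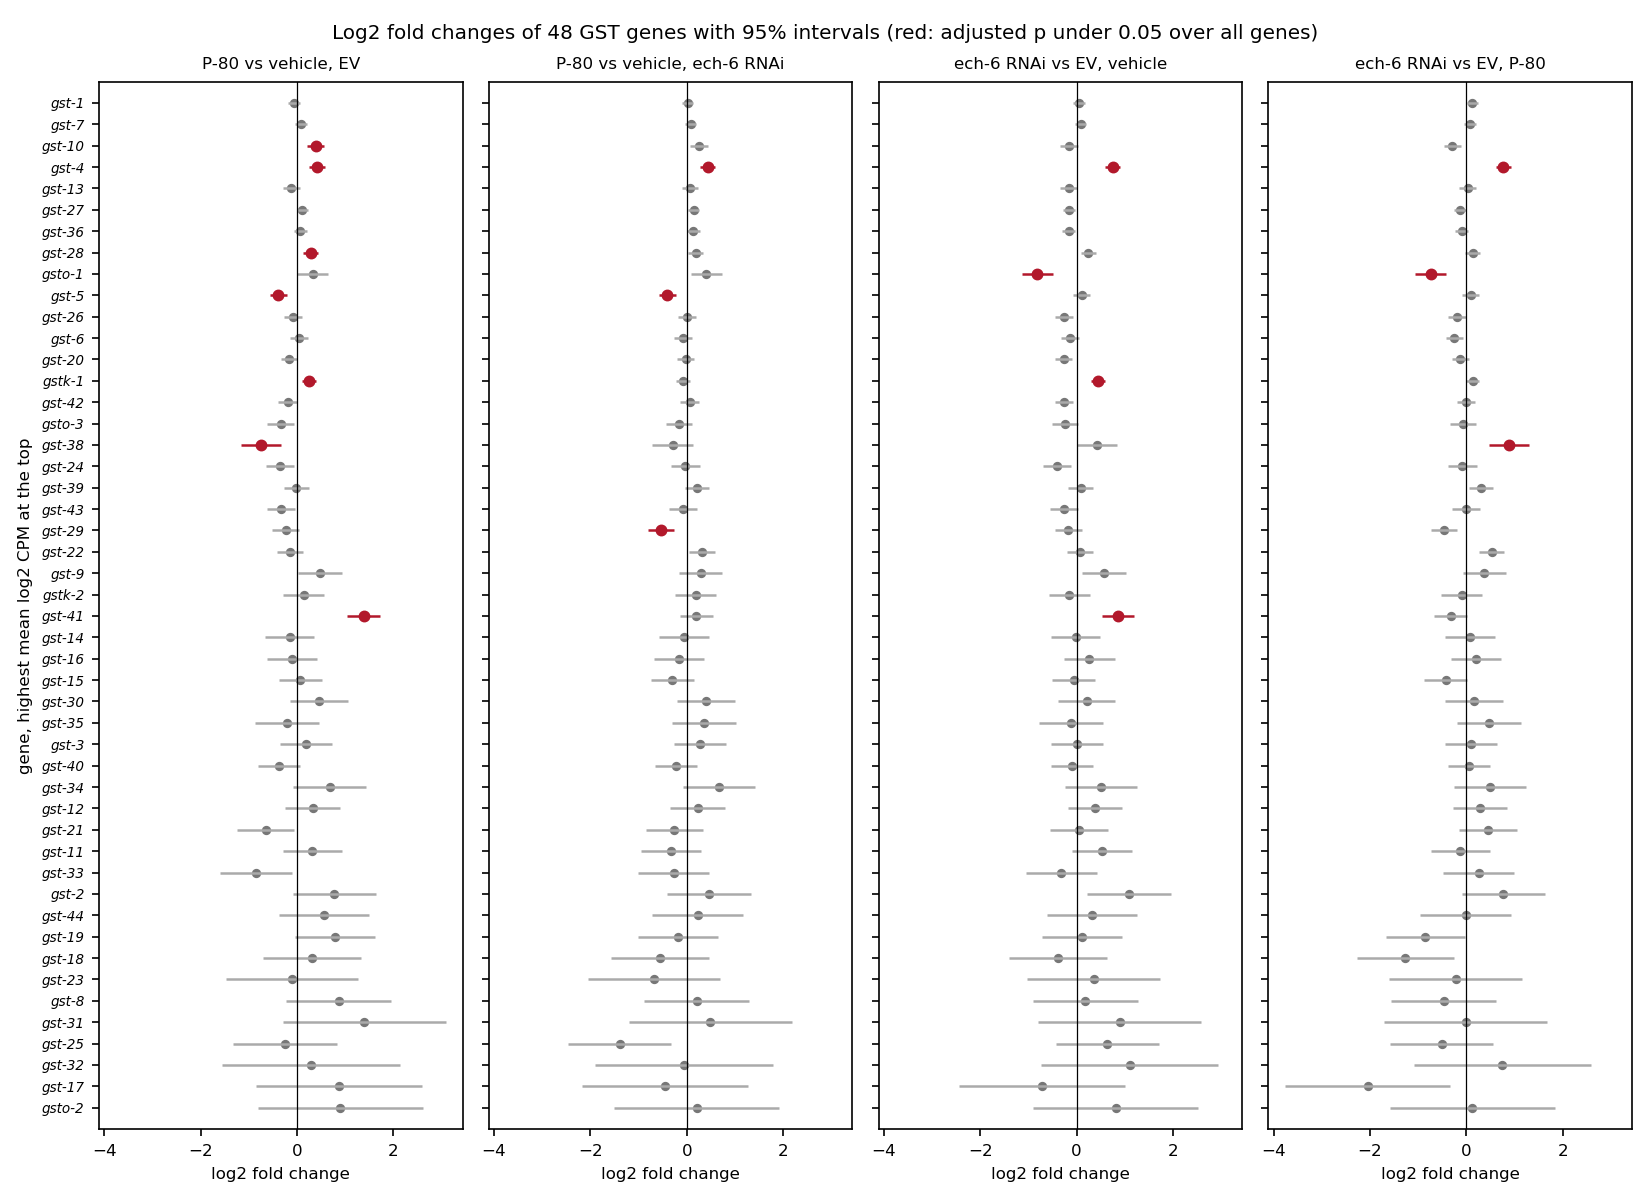
Log2 fold changes of the 48 genes with 95% intervals in the 4 pairwise comparisons, ordered by mean log2 CPM with the highest at the top. Red marks an adjusted p under 0.05 over all genes, and the intervals widen towards the bottom, where the 13 genes under 1 CPM lie.

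The interaction asked whether P-80 acted differently on the EV and *ech-6* RNAi backgrounds. No GST gene passed (0 of 48), and neither did any other gene, so that 0% of all genes were called by limma. With voom weights on the recovered reads limma also called 0 of the 48. At an unadjusted p under 0.05, 3 of the 48 genes passed by limma with either weighting, and 5.91% of all genes passed without weights.

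These 3 genes were *gst-41*, *gstk-1* and *gst-22*. *gst-41* had the smallest p (5.36e-05, adjusted p = 0.265 by limma), with an interaction of -1.18 on the log2 scale (SE 0.228). P-80 gave a log2 fold change of 1.39 in EV worms and 0.20 in *ech-6* RNAi worms, whose 8 samples all lay between 1.72 and 2.35 CPM. Without the library labelled replicate 3 of *ech-6* RNAi + vehicle the interaction was -1.12 (adjusted p = 0.392). *gstk-1* had an interaction of -0.32 (SE 0.0970, limma adjusted p = 0.707, and 0.775 without the library labelled replicate 3), with P-80 log2 fold changes of 0.25 in EV worms against -0.08 after *ech-6* RNAi. Both differences between the backgrounds therefore failed the correction over all genes.

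For *gst-4* the P-80 changes were of like size in both backgrounds. Its interaction was 0.02 on the log2 scale with a 95% interval from -0.21 to 0.25 (limma adjusted p = 0.986), 0.02 also without the library labelled replicate 3, and the P-80 log2 fold changes were 0.41 and 0.44. For *gst-5* the interaction was -0.02 (95% interval -0.26 to 0.23, and -0.06 without that library), with -0.39 and -0.41 in the 2 backgrounds.

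Of the 5 highest members by CPM per kilobase, *gst-4* and *gst-10* are described above and the other 3 were not called in any comparison. *gst-1* (III:9059331-9060181) ranged from 121 to 159 CPM over all 16 samples, and its log2 fold changes in the 4 pairwise comparisons were -0.06, 0.02, 0.05 and 0.13. *gst-7* ranged from 50.5 to 62.8 CPM, with log2 fold changes from 0.08 to 0.09. *gst-13* ranged from 40.2 to 55.5 CPM, with log2 fold changes from -0.16 to 0.07.

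The wider glutathione system was described with 46 genes, of which 45 were in the table and 10 changed in at least 1 comparison. Of all genes, 18.6% changed in at least 1 comparison. The shares of all genes to set beside the counts that follow are those given above, namely 6.97% higher and 9.14% lower for P-80 in EV worms, 2.63 and 4.58% for P-80 after *ech-6* RNAi, and 0.476% higher for *ech-6* RNAi on P-80. Of 16 genes for making and using glutathione, 2 rose with P-80 in EV worms and 1 was higher in *ech-6* RNAi worms on P-80. Of 8 MRP transporters, 2 rose with P-80 in EV worms. Of 13 regulators of SKN-1 and related stress responses, 1 rose and 3 fell with P-80 in EV worms, and in *ech-6* RNAi worms 2 fell with P-80. Of 5 other proteins with a GST fold, 1 rose in each P-80 comparison, and of 3 glyoxalase genes 0 changed in any comparison at either direction (1 had an unadjusted limma p under 0.05, for P-80 in EV worms).

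*gcs-1* (II:9035562-9038301), a known SKN-1 target, had 6.80, 6.65, 6.69 and 6.67 log2 CPM in EV + P-80 and 6.94, 7.11, 6.91 and 6.92 in *ech-6* RNAi + P-80. The groups did not overlap, with a log2 fold change of 0.27 (SE 0.0495, limma adjusted p = 0.00903). This call was lost without the variance trend (adjusted p = 0.0636) and with only the groups compared (0.0853). With vehicle the difference was 0.16 (SE 0.0495) and did not pass (limma adjusted p = 0.0937), and without the library labelled replicate 3 it was 0.17 (0.124). For P-80 the log2 fold changes of *gcs-1* were -0.08 in EV worms and 0.03 in *ech-6* RNAi worms, neither of them called.

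*skn-1* itself (IV:5651039-5660384) was slightly lower with P-80. EV samples had 6.90, 6.77, 6.84 and 6.99 log2 CPM with vehicle and 6.69, 6.70, 6.72 and 6.68 with P-80, without overlap (log2 fold change -0.18, SE 0.0467, limma adjusted p = 0.0143). This call was lost without EV + vehicle replicate 4 (adjusted p = 0.0705). *ech-6* RNAi samples had 6.87, 6.79, 6.90 and 6.90 with vehicle and 6.65, 6.57, 6.71 and 6.64 with P-80 (log2 fold change -0.22, SE 0.0467, limma adjusted p = 0.00790, and 0.0308 without the library labelled replicate 3). When values were centred on each sample's median, both *skn-1* calls were lost, with -0.09 in EV worms (adjusted p = 0.240) and -0.14 after *ech-6* RNAi (0.109). *skn-1* makes several isoforms, which these gene-level values do not separate.

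Other regulators moved with P-80. *mxl-3*, a repressor of lysosomal lipase genes, had 4.77, 4.58, 4.73 and 4.66 log2 CPM in EV + vehicle and 5.26, 5.25, 5.08 and 5.41 in EV + P-80 (log2 fold change 0.57, SE 0.0751, limma adjusted p = 7.68e-05). After *ech-6* RNAi its P-80 log2 fold change of 0.24 did not pass (limma adjusted p = 0.0542). *hlh-30*, the worm counterpart of the lysosomal regulator TFEB, fell by 0.39 on the log2 scale in EV worms (limma adjusted p = 0.00130) and by 0.33 after *ech-6* RNAi (0.0100, and 0.0432 without the library labelled replicate 3). *mdt-15*, a Mediator subunit that acts in lipid and detoxification gene expression, fell by 0.19 in EV worms (limma adjusted p = 0.00707), and the value was -0.10 with an adjusted p of 0.119 after centring on the sample median. Its P-80 log2 fold change after *ech-6* RNAi, -0.14, did not pass (limma adjusted p = 0.0745).

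Among enzymes that use glutathione to reduce peroxides, *gpx-3* had 2.63, 3.37, 3.23 and 2.76 log2 CPM in EV + vehicle and 3.59, 3.79, 3.45 and 3.81 in EV + P-80, without overlap (log2 fold change 0.66, SE 0.141, limma adjusted p = 0.00341). In *ech-6* RNAi worms its P-80 log2 fold change of 0.46 did not pass (adjusted p = 0.0563, and 0.0525 without the library labelled replicate 3). The neighbouring *gpx-5* rose by 0.27 in EV worms (limma adjusted p = 0.0433), a call lost in 9 of the 16 fits that left out 1 library, with adjusted p up to 0.151, and without the variance trend (0.107).

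The transporters that rose with P-80 in EV worms were *mrp-5*, a heme exporter of the intestine, with a log2 fold change of 0.27 (SE 0.0769, limma adjusted p = 0.0193), and *mrp-4*, with 0.26 (SE 0.0791, adjusted p = 0.0323). The first call was lost in 3 and the second in 5 of the 16 fits that left out 1 library, and both without the variance trend (adjusted p = 0.0686 and 0.0873). *mtx-2*, a metaxin of the mitochondrial outer membrane, rose by 0.16 in EV worms (limma adjusted p = 0.0414) and by 0.20 after *ech-6* RNAi (0.0230), and these calls were lost in 7 and 4 of the 16 fits, the first also with only the groups compared (0.0898). Without the library labelled replicate 3, the *mtx-2* value in *ech-6* RNAi worms was 0.19 (adjusted p = 0.0730).

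With the hedgehog-related covariate, *mxl-3* was the gene of these 10 that was still called for P-80 in EV worms (log2 fold change 0.54, limma adjusted p = 0.0202). The shares of all genes called for P-80 with the covariate were 0.689% in EV worms and 0.547% after *ech-6* RNAi. In *ech-6* RNAi worms 0 of the 10 were called for P-80 with it, as *skn-1* (-0.15, adjusted p = 0.445), *hlh-30* (-0.16, 0.587) and *mtx-2* (0.12, 0.615) no longer passed. *gcs-1* kept its difference between *ech-6* RNAi and EV on P-80 (0.26, adjusted p = 0.00478).

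**Figure D4:**
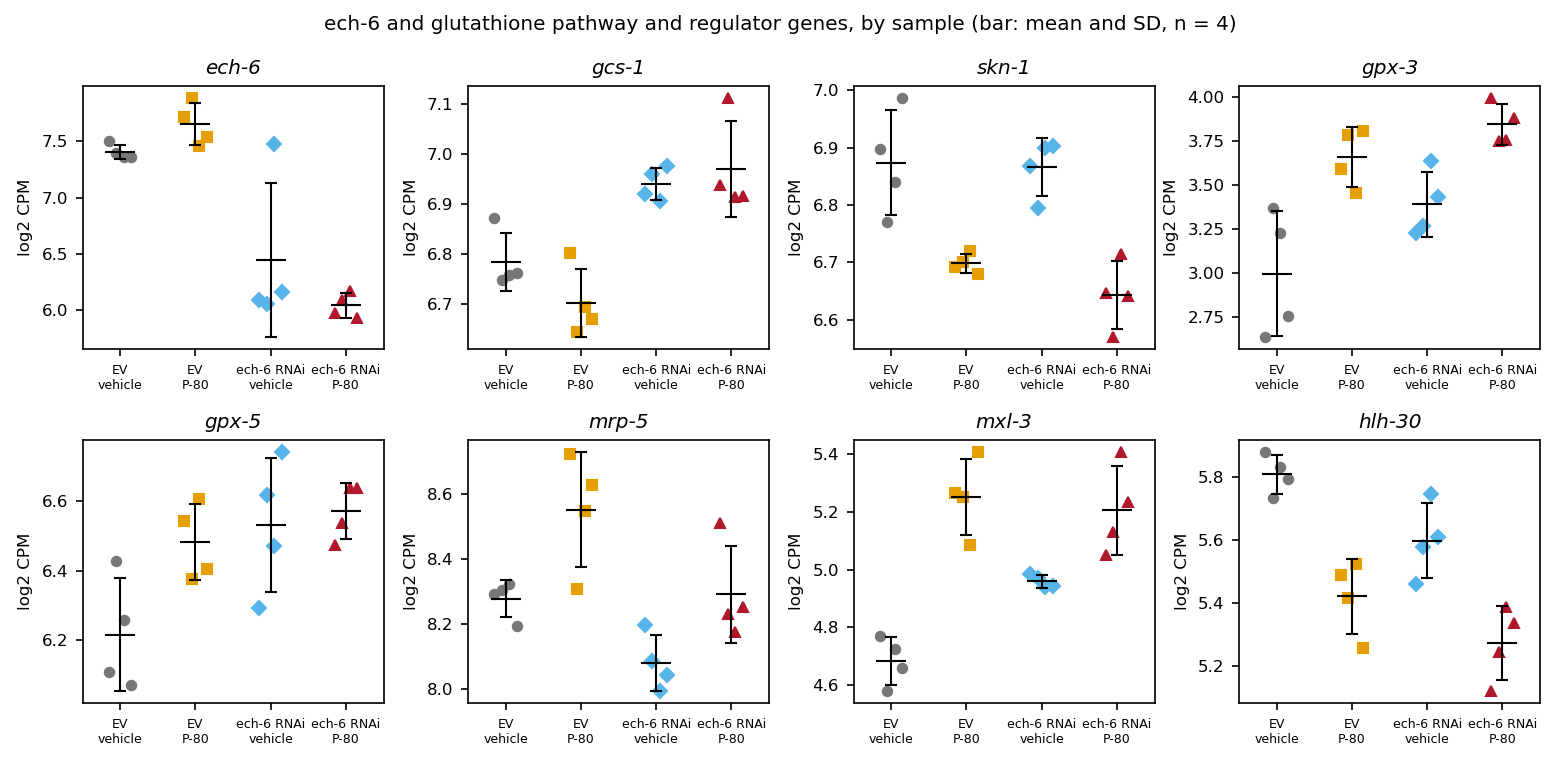
Log2 CPM of *ech-6* and of 7 glutathione pathway and regulator genes, with 1 point per sample and the mean and SD of each group (n = 4). *ech-6* shows the library labelled replicate 3 of *ech-6* RNAi + vehicle at 7.48, within the EV range, and *gcs-1* is higher in all *ech-6* RNAi + P-80 samples than in all EV + P-80 samples.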

How the data were processed

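RNA was rRNA-depleted and made into stranded libraries. Genes for rRNA still held 16.5 to 20.7% of the reads assigned to genes in each library. Per the labels and methods, the authors trimmed reads (Trimmomatic 0.32), aligned them to WBcel235 (HISAT2 2.0.4), counted genes with Ensembl 91 (HTSeq 0.6.1), retained a gene when 4 or more libraries had above 2 counts, and deposited log2 CPM values scaled by TMM with a constant added. Undoing the log gave whole reads for 100% of values (tolerance 0.05 read).

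The deposited log2 values of all 19750 genes and 16 samples were fitted with limma 3.58.1 (1 mean per group, trended variance, Benjamini-Hochberg, R 4.3.3). Fold changes are therefore on the scale of the log2 value plus constant, which understates low genes. Coordinates and exon lengths came from Ensembl 115 on the same assembly, in which 85 genes of the table had no entry.

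Genes are named when called in a comparison with a mean log2 CPM of at least 0, when among the 5 highest, or when they were *gst-1*, *gst-4*, *gst-10*, *gst-42*, *gsto-1* or *gstk-1*; of the pathway lists, each called gene is named. Members and lists were chosen with earlier results of these data known. Counts were simulated for 19750 genes, with 200 genes averaging at least 1 CPM changed 2-fold in EV + P-80 samples alone. The comparison of P-80 with vehicle in EV worms recovered 192 and called 5 others. Of the GST changes called in that comparison, *gst-41* alone exceeded 2-fold. The recovery therefore does not cover the smaller changes or genes under 1 CPM. Alternatives covered the variance model, filter, scaling, weights, constant, block, covariate and each library left out. No sequences were used here.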

Additional observations from a re-analysis of the deposited data

Results flagged for a closer look

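In 6 of 92 groups of 4 samples examined for the named genes, 1 sample stood apart from the other 3, where chance alone flags about 5% of groups. *gst-29* in *ech-6* RNAi + vehicle replicate 4 had 1.95 log2 CPM against 2.23 to 2.28 in the others. *gst-38* in *ech-6* RNAi + P-80 replicate 2 had 3.96 against 3.12 to 3.25. *gst-42* in EV + vehicle replicate 1 had 4.37 against 3.90 to 3.97. *gsto-1* in *ech-6* RNAi + vehicle replicate 1 had 4.76 against 4.14 to 4.24. *gcs-1* had 6.87 in EV + vehicle replicate 1 against 6.75 to 6.76, and 7.11 in *ech-6* RNAi + P-80 replicate 2 against 6.91 to 6.94.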

How the results depend on the processing

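Counts of called GST genes stayed within 1.5 times of the reported ones under most of the 12 alternatives other than leaving out a library, 1 of which was chosen after seeing the data (the hedgehog-related covariate without *ech-6* RNAi + vehicle replicate 3). The count test planned on recovered reads is not reported, because the deposited values are on a log scale. For P-80 in EV worms the count was 3 with the hedgehog-related covariate, with or without that library. The count for P-80 after *ech-6* RNAi was 0 with that covariate, with or without that library, and 5 when values were centred on each sample's median, which added *gst-10* and *gst-27*. For *ech-6* RNAi against EV with P-80 it was 1, *gst-4*, without the variance trend, with robust shrinkage and with only the 2 groups compared. The interaction count was 0 in all alternatives. Leaving out 1 library gave 6 to 8 calls for P-80 in EV worms, 2 to 4 for P-80 in *ech-6* RNAi worms, 4 to 5 for *ech-6* RNAi with vehicle, 1 to 4 for *ech-6* RNAi with P-80 (1 without EV + P-80 replicate 3 or *ech-6* RNAi + P-80 replicate 2) and 0 for the interaction. No called value changed sign. The cause of these shifts was not tested.

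Over all genes, with the hedgehog-related covariate, 96 genes were higher and 40 lower for P-80 in EV worms in place of 1377 and 1805, and 75 and 33 after *ech-6* RNAi in place of 519 and 905. Replicate numbers did not pair the samples in general: correlations of same-numbered samples ran from -0.25 to 0.50, with 6 of 24 over 0.1. Of the 16 samples, 5 correlated best with their own number. The correlation of 0.50 was between replicate 3 of EV + P-80 and replicate 3 of *ech-6* RNAi + P-80. Whether those libraries shared a batch was not tested. With replicate number as a block the counts were 8 (adding *gsto-3*), 3, 4, 3 and 0 in the order of the 5 comparisons. At 1 read per 0.0353 to 0.0651 CPM, depth limits what can be said of the 13 genes under 1 CPM.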
